A study of Mus musculus with 42 samples.

Results

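The 32 genes described here encode enzymes and carriers of fatty acid oxidation and of ketone body use, and were taken by symbol from a table of 37310 counted genes. They were followed in 42 RNA-seq libraries of macrophages differentiated in culture from mouse marrow (BMDM), in medium conditioned by L929 cells, which supply a macrophage growth factor. Mice labelled KO came from a cross of animals whose Irf5 alleles (interferon regulatory factor 5, a transcription factor) were flanked by loxP sites with animals carrying Cre recombinase under the Lyz2 (LysM) promoter of myeloid cells. The others are labelled WT, and whether these carried floxed alleles or were littermates is not given in the sources used here. All were young adult male mice on a C57BL/6 background. The 14 groups of 3 libraries were Control cells at 0, 2 and 24 h, cells given palmitate, a saturated fatty acid, for 2 or 24 h, and cells given lipopolysaccharide (LPS), a bacterial cell wall component, for 2 or 24 h, each labelled WT or KO. Whether Control cells received the vehicle of palmitate is not given in the sources used here. The libraries are not stated to come from separate mice or cultures, so p-values measure the spread between these libraries, which may be technical.

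Fatty acids enter mitochondria as esters of carnitine, a step that Cpt1a begins at the outer membrane. In the matrix an acyl-CoA dehydrogenase, a hydratase, a hydroxyacyl-CoA dehydrogenase and a thiolase shorten the chain in turns and release acetyl-CoA, and the dehydrogenases pass their electrons through the electron transfer flavoprotein to the respiratory chain. Peroxisomes shorten very long and branched chains with enzymes of their own, and ketone bodies made elsewhere are turned back into acetyl-CoA by Bdh1 and Oxct1. Oxidation of fatty acids is associated with alternatively activated macrophages, and several of its genes are known targets of nuclear receptors that sense fatty acids.

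Total counts per library ran from 2848793 to 7743442, so that 3 counts stood for 0.397 to 1.14 CPM (counts-per-million values, scaled here by TMM factors), and intervals or floors of this kind cover counting error only. Irf5 was not lower where the label says KO, at 210 to 389 CPM in WT libraries and 267 to 430 CPM in KO libraries, so groups are named below by their labels. Counts covered the whole gene, and reads from exons outside the floxed part do not check the deletion. The macrophage markers were present throughout, with 8 genes summing to 10000 to 23600 CPM. Genes of fibroblasts and adipocytes differed between libraries. Their summed level ran from 0.631 to 307 CPM, and of the 9 genes 2 to 5 were at 0 in all libraries of a group. T or NK cell markers summed to 0 to 3.04 CPM and erythroid markers to 0 to 0.865 CPM. B cell markers, of which 2 of 6 were tested, summed to 15.8 to 51.5 CPM.

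All 32 genes passed the filter on low counts. Per length, here CPM per kb of the principal transcript in WT Control 0 h, the highest levels were those of Hsd17b4, the peroxisomal D-bifunctional protein, at 87.5 ± 2.83 (SD, n = 3), and Oxct1, which activates acetoacetate with succinyl-CoA, at 64.9 ± 2.06 (SD, n = 3). Etfb and Acadl followed at 52.9 ± 3.51 and 52.5 ± 3.53 (SD, n = 3), a gap within their spread. Hadha and Cpt1a came next at 39.2 ± 1.68 and 38.6 ± 3.48 (SD, n = 3), which also lay within their spread of each other. The remaining genes formed a gradual slope with many neighbours inside each other's SD, down to Acad9 at 4.91 ± 0.47 (SD, n = 3). Only Ehhadh, the peroxisomal L-bifunctional enzyme, and Bdh1, the 3-hydroxybutyrate dehydrogenase, lay well below that. Ehhadh had 10 to 33 counts in a library. Bdh1 had 0 to 12 counts, so its fold changes were not measurable at this depth, and the partner enzyme Oxct1 made up nearly all of the ketone-use signal.

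**Figure D1:**
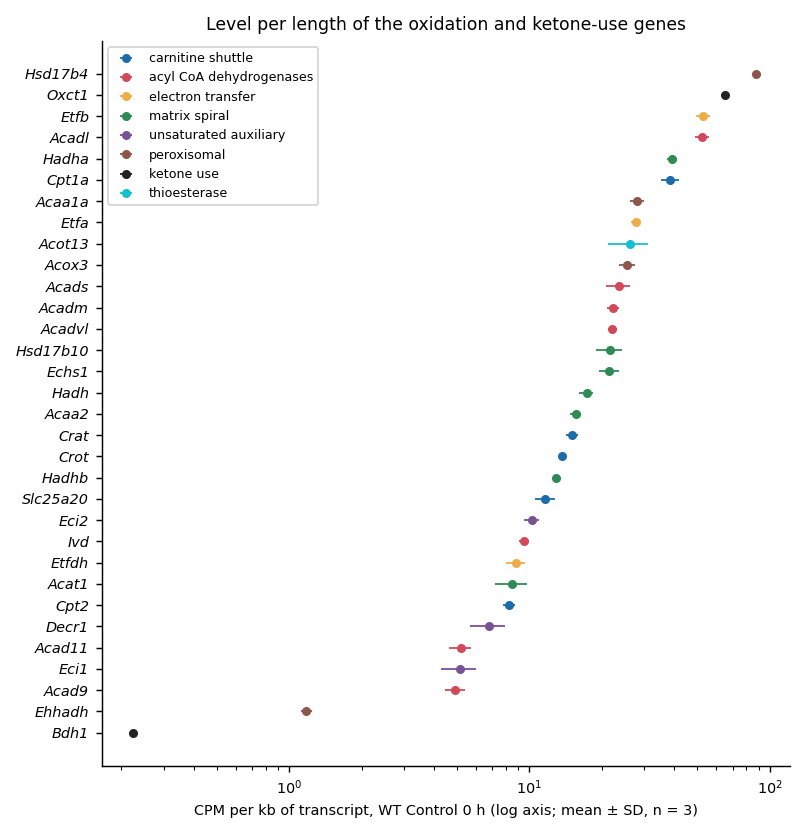
Level of each gene per length in WT Control 0 h, as CPM per kb of the principal transcript on a log axis, with the mean and SD of 3 libraries and colours for the role of the enzyme. Hsd17b4 (87.5) and Oxct1 (64.9) are highest and Bdh1 (0.224) lowest. Bdh1 is drawn without its SD, which exceeds its mean.

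Palmitate for 24 h raised 7 of the 32 genes and lowered 1, 25% of the list, where 2.57% of all 11624 genes tested passed the same threshold (edgeR quasi-likelihood test, Benjamini-Hochberg adjusted p under 0.05, 6 libraries against 6 over both genotype labels). The genes that rose cover the carnitine shuttle (Cpt1a and Slc25a20), the dehydrogenases of long chains (Acadl and Acadvl), the electron path (Etfb and Etfdh) and the thiolase of the last step (Acaa2). None of the 4 peroxisomal genes and none of the 3 auxiliary enzymes for unsaturated chains passed the test. The median log2 fold change of the 32 genes was 0.16, beside -0.00 over all genes tested, and 22 of the 32 were positive. DESeq2, a second count model, called 11 (10 higher and 1 lower), beside 364 of all genes tested.

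Cpt1a, which makes acylcarnitines at the outer membrane and is the step malonyl-CoA inhibits, held 119.6, 130.3 and 134 CPM in the WT Control 24 h libraries and 256, 249.8 and 255 CPM after palmitate. With KO labels the values were 119, 126 and 129.7 CPM in Control and 219, 249.7 and 243 CPM with palmitate. Every palmitate library lay above every Control library, and the rise was 1.93-fold (log2 fold change 0.95 ± 0.05 SE, adjusted p = 9.21e-19). Slc25a20, the carrier that exchanges acylcarnitine for carnitine across the inner membrane, went from 16.8, 15.3 and 14.3 CPM to 30.8, 21.6 and 21.7 CPM in WT and from 15.9, 13.7 and 11.04 CPM to 26.6, 24.8 and 24.4 CPM with KO labels. Its 1.75-fold rise (log2 fold change 0.81 ± 0.11 SE, adjusted p = 2.37e-06) also came with no overlap between the groups, although 1 WT library stood above the other palmitate libraries. Cpt2, which hands the acyl group back to CoA inside, had log2 fold change 0.26 ± 0.12 SE, adjusted p = 0.356, and Crat and Crot, which act on acetyl and medium-chain groups, had log2 fold changes of 0.05 and -0.02.

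Acaa2, the mitochondrial 3-ketoacyl-CoA thiolase, held 19.7, 18.9 and 17.9 CPM in WT Control 24 h and 36.7, 31.4 and 34.6 CPM after palmitate. The KO-labelled libraries held 20.6, 17.3 and 18.5 CPM and 32.9, 33.3 and 32.4 CPM. The groups did not overlap under either label, and the change was 1.79-fold (log2 fold change 0.84 ± 0.11 SE, adjusted p = 1.73e-07). Acadl, the long-chain acyl-CoA dehydrogenase, went from 78.9, 79.2 and 84.8 CPM to 117, 105 and 113 CPM in WT and from 64.8, 75.3 and 83.8 CPM to 113, 109 and 105 CPM with KO labels, a 1.41-fold rise without overlap (log2 fold change 0.50 ± 0.07 SE, adjusted p = 7.35e-07). Rises were also measured for Etfb, the beta subunit of the electron transfer flavoprotein (log2 fold change 0.54 ± 0.08 SE, adjusted p = 1.39e-05), and for Acadvl, the very long-chain dehydrogenase of the inner membrane (log2 fold change 0.38 ± 0.06 SE, adjusted p = 7.29e-05). Etfdh, which passes those electrons to ubiquinone, was just inside the threshold (log2 fold change 0.32 ± 0.09 SE, adjusted p = 0.0416), and its call was lost in 11 of the 12 fits that left out 1 library. Genes just outside were Hadh, the short-chain hydroxyacyl-CoA dehydrogenase (log2 fold change 0.34 ± 0.10 SE, adjusted p = 0.0523), Eci2, an enoyl-CoA isomerase (log2 fold change 0.37 ± 0.11 SE, adjusted p = 0.0597), and Hadha, the alpha subunit of the trifunctional protein (log2 fold change 0.16 ± 0.05 SE, adjusted p = 0.0649).

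Oxct1 moved the other way. It held 181, 161 and 169.9 CPM in WT Control 24 h and 128, 124 and 131 CPM after palmitate, and 160.2, 164 and 179 CPM and 123, 124 and 120.2 CPM with KO labels. All 6 palmitate libraries lay below all 6 Control libraries, at 0.74 times the Control level (log2 fold change -0.44 ± 0.05 SE, adjusted p = 6.49e-09). The summed share of the 32 genes before TMM scaling went from 1660 ± 18.3 to 1822 ± 55.6 in WT and from 1618 ± 49.9 to 1812 ± 28.7 CPM with KO labels (SD, n = 3), so the sum went up while Oxct1, with the second-highest level per length, went down. In a bulk sample, fewer cells of a type and less RNA per cell cannot be told apart.

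**Figure D2:**
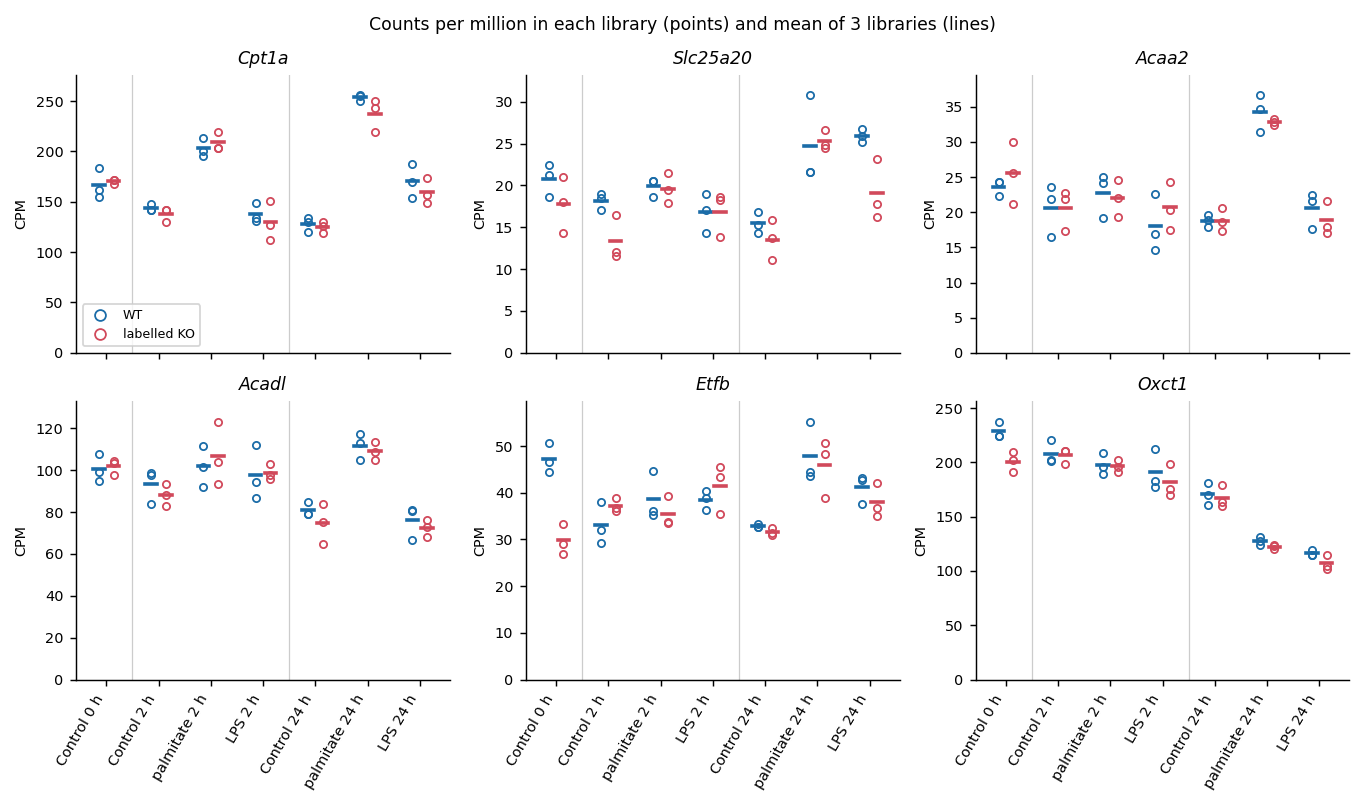
CPM (y axes, from 0) of 6 genes in each library, by condition on the x axis, with WT in blue and libraries labelled KO in red; points are libraries and lines are means of 3. For Cpt1a, Slc25a20, Acaa2, Acadl and Etfb the palmitate 24 h points lie above those of Control 24 h, and for Oxct1 both palmitate 24 h and LPS 24 h points lie below them.

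At 2 h palmitate had raised only Cpt1a among the 32 genes, where 0.542% of all genes tested were called. Cpt1a held 142, 148 and 142 CPM in WT Control 2 h and 201, 213 and 195 CPM with palmitate, and 142, 142 and 129.8 CPM and 204, 219 and 204 CPM with KO labels. The groups did not overlap, and the rise was 1.46-fold (log2 fold change 0.55 ± 0.05 SE, adjusted p = 7.93e-10). The other genes called at 24 h had values at 2 h from -0.07 (Oxct1) to 0.34 (Slc25a20) on the log2 scale, none past the threshold. A direct test of the 24 h effect against the 2 h effect called 5 of the 32 genes, beside 1.28% of all genes. The count was 1 in WT libraries alone, and 0 in KO libraries alone and in WT libraries without those over 20 CPM of fibroblast and adipocyte markers (edgeR, with 10 and 6 at an unadjusted p under 0.05). The effect was larger at 24 h for Acaa2 (difference 0.73 ± 0.15 SE, adjusted p = 0.00333), Etfb (difference 0.46 ± 0.12 SE, adjusted p = 0.0302), Acadvl (difference 0.44 ± 0.09 SE, adjusted p = 0.00448) and Cpt1a (difference 0.40 ± 0.08 SE, adjusted p = 0.00146), and lower for Oxct1 (difference -0.36 ± 0.07 SE, adjusted p = 0.000843). The call for Etfb held in 13 of 24 fits that left out 1 library.

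Of 12 listed targets of fatty acid sensing receptors, 8 were tested and 7 were called at 24 h, all higher, with a median log2 fold change of 0.76. The first were Plin2, a lipid droplet coat protein (2.01 ± 0.04), and Angptl4, a secreted inhibitor of lipoprotein lipase (3.40 ± 0.16). These same 2 genes were the 2 called at 2 h (1.02 ± 0.04 for Plin2 and 3.28 ± 0.18 for Angptl4). At both times, where 2.57% (24 h) and 0.542% (2 h) of all genes were called, edgeR called 0 genes among the 17 regulators tested, the 15 other mitochondrial, the 18 other peroxisomal, the 6 other ketone, the 17 propionate and branched-chain and the 6 flavin supply genes tested, with medians at 24 h from -0.14 to 0.04 on the log2 scale. At an unadjusted p under 0.05 these lists held 0 to 4 genes each at 24 h and 0 to 2 at 2 h.

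In the Control 24 h libraries the summed fibroblast and adipocyte markers were 3.93 to 45.5 CPM (WT) and 41.1 to 134 CPM (KO), against 1.8 to 11.4 and 1.16 to 10 CPM after palmitate. With that sum as a covariate, a choice made after seeing the data, 7 of the 32 genes were called (6 higher and 1 lower). In that fit 235 of all 11624 genes tested were called, against 299 without the covariate. In WT libraries alone, without those over 20 CPM of these markers, 4 were called (3 higher, which were Cpt1a, Acaa2 and Acadl, and 1 lower, which was Oxct1), with log2 fold changes of 1.01 for Cpt1a, 0.83 for Acaa2, 0.50 for Acadl and -0.42 for Oxct1. Of all genes tested, 43 were called in that subset.

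RefSeq start site sequences (GRCm38.p6) were found for 25 of the 32 genes. The gene models used here for transcript lengths begin upstream of the RefSeq start for Cpt1a (chr19:3322334), Slc25a20 (chr9:108662088) and, on the minus strand, Etfdh (chr3:79629500). The 100 bases before the RefSeq start are shown for 5 of the 7 genes that rose with palmitate at 24 h. They are printed in the direction of transcription and in lower case, so that the sequence beside these starts can be read.
Cpt1a, chr19:3323201-3323300, plus strand: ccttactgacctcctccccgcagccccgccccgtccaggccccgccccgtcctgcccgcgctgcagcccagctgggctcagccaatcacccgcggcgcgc
Slc25a20, chr9:108662036-108662135, plus strand: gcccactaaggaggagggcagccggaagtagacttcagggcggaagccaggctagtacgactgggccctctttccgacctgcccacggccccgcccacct
Etfb, chr7:43443972-43444071, plus strand: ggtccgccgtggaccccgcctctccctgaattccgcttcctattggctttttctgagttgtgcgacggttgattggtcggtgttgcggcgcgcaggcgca
Acadl, chr1:66863310-66863409, minus strand: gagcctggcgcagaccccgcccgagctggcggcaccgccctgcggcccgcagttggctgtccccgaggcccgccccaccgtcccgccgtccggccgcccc
Acadvl, chr11:70015429-70015528, minus strand: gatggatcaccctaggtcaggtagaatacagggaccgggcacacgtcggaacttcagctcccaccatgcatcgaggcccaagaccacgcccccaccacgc
These stretches hold 62.0 to 83.0% G or C and from 6 to 14 CG pairs each, where the median over all 32851 promoters was 55.0% and 3 pairs and that over 26 promoters of the 32 genes was 66.0% and 7 pairs. The corresponding stretch of Etfdh, which also rose, is not shown and holds 54.0% and 1 pair. None of the RefSeq promoter windows of these 5 genes, which span the start site, held any of 4 motifs searched on both strands: AGGNCAAAG, the core of the repeat that PPAR with RXR binds, TCAAGGTCA of the estrogen-related receptors, GCGCATGCG, the core of the NRF1 site, and TGACGTCA of CREB or ATF.

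Across the 25 genes with a window, the PPAR and RXR core was found for 1 gene (4.0%, against 2.35% of all 27025 genes with a window), the NRF1 core for 2 (8.0%, against 1.95%), and the other motifs for 0 (against 0.466% for TCAAGGTCA and 2.03% for TGACGTCA). The 3 matches are printed with 20 bases on either side, the motif or its reverse complement in capitals. They are matches of letters only.
Etfa, chr9:55512288-55512336, minus strand: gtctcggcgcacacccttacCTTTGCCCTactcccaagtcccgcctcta
Acadm, chr3:153944774-153944822, minus strand: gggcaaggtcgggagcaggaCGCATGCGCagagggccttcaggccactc
Etfdh, chr3:79628867-79628915, minus strand: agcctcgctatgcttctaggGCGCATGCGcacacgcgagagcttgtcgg
The Etfdh match reads on both strands, shifted by 1 base. It lies inside the gene model of Etfdh, outside annotated exons. Of these 3 genes, Etfdh was the only one called with palmitate, and Acadm the only one called with LPS. The Etfdh call was kept in 1 of 12 fits that left out 1 library.

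LPS for 24 h moved 20 of the 32 genes, 9 up and 11 down, where 52.1% of all genes tested were called. The share of the list was 62.5%. The median log2 fold change was -0.04, beside -0.01 over all genes. The list split in both directions within most roles. Among those that rose were Cpt1a and Slc25a20 of the carnitine shuttle, 2 isomerases for unsaturated chains and the peroxisomal thiolase, and among those that fell were dehydrogenases of medium and short chains, the D-bifunctional protein and Oxct1.

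Acaa1a, the peroxisomal 3-ketoacyl-CoA thiolase, held 65.7, 62.9 and 58.3 CPM in WT Control 24 h and 92.9, 129.9 and 107 CPM with LPS. With KO labels it held 59.6, 55.4 and 65.3 CPM and 128, 122 and 123 CPM. It had the largest rise of the list, 1.91-fold without overlap (log2 fold change 0.93 ± 0.08 SE, adjusted p = 5.59e-14). Acaa1a shares 290 exonic bases with Myd88, an adaptor of the LPS receptor on the other strand, and whether counting used the strand is not given in the sources used here. Myd88 rose by 1.02 on the log2 scale at 24 h and by 1.37 at 2 h, when Acaa1a had a value of 0.09 (adjusted p = 0.475, edgeR quasi-likelihood test). Acaa1a also has a close paralog, Acaa1b, to which reads could be assigned.

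Cpt1a held 154, 188 and 169 CPM in WT LPS 24 h and 149, 173 and 156 CPM with KO labels, above all Control 24 h libraries given above and below all palmitate libraries. Its rise was 1.30-fold (log2 fold change 0.38 ± 0.06 SE, adjusted p = 9.19e-08). Slc25a20 held 26.7, 25.2 and 25.9 CPM in WT and 23.1, 17.7 and 16.3 CPM with KO labels, without overlap within either label (1.56-fold, log2 fold change 0.64 ± 0.12 SE, adjusted p = 5.76e-06). Cpt1a and Slc25a20 were thus higher under either treatment at 24 h, with comparisons that share the same Control libraries. Eci2, which moves double bonds into the position that the hydratase accepts, went from 17.97, 18.3 and 15.01 CPM to 21.7, 20.9 and 26.03 CPM in WT and from 12.7, 16.2 and 15.999 CPM to 22.7, 20.7 and 24.01 CPM with KO labels, again without overlap (log2 fold change 0.50 ± 0.11 SE, adjusted p = 0.000116). Further rises were those of Acadvl (0.28 ± 0.06), Etfb (0.30 ± 0.08), Echs1, the short-chain hydratase (0.22 ± 0.08), and Eci1, a second isomerase with 19 to 79 counts in a library (0.48 ± 0.17). Dvl2, which shares 1151 exonic bases with Acadvl on the other strand, changed by -0.49, opposite to Acadvl.

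Oxct1 held 115, 119 and 115 CPM in WT LPS 24 h and 115, 102 and 104 CPM with KO labels, below every Control 24 h library, at 0.66 times the Control level (log2 fold change -0.60 ± 0.05 SE, adjusted p = 2.29e-15). Hsd17b4, the hydratase and dehydrogenase of peroxisomal oxidation of branched and very long chains, went from 255, 246 and 252 CPM to 158, 196 and 169 CPM in WT. With KO labels it went from 248, 243 and 248.6 CPM to 164, 156 and 149 CPM, and the groups did not overlap (0.66 times Control, log2 fold change -0.59 ± 0.05 SE, adjusted p = 1.11e-14). These 2 genes had the smallest adjusted p among those that fell. They also had more counts over all libraries (40719 for Oxct1 and 52598 for Hsd17b4) than Crot (8832) and Ivd (8139). Crot and Ivd, described next, fell by similar amounts with larger SE.

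Crot, the peroxisomal carnitine octanoyltransferase, went from 38.5, 45.9 and 45.7 CPM to 39.7, 27.5 and 34.4 CPM in WT, where the ranges overlapped, and from 36.998, 45.6 and 48.4 CPM to 24.2, 25.2 and 27.2 CPM with KO labels, where they did not (log2 fold change -0.58 ± 0.09 SE, adjusted p = 9.29e-08). Ivd, the isovaleryl-CoA dehydrogenase of leucine breakdown, went from 38.7, 38.6 and 43.6 CPM to 22.8, 26.8 and 30.8 CPM in WT and from 38.7, 37.2 and 46.3 CPM to 25.8, 22.03 and 30.5 CPM with KO labels, without overlap (log2 fold change -0.62 ± 0.09 SE, adjusted p = 1.28e-07). Acox3, a peroxisomal oxidase of branched chains (-0.37 ± 0.06), Acads, the short-chain dehydrogenase (-0.52 ± 0.09), Acadm, the medium-chain dehydrogenase (-0.37 ± 0.08), and Decr1, the dienoyl-CoA reductase (-0.47 ± 0.13), fell as well. The 4 remaining called genes, named after their values were seen, were Acad9, which rose (0.26 ± 0.10, with the call lost in 5 of 12 fits that left out 1 library and in the fit of all genes with at least 1 count), and Hadh (-0.39 ± 0.11), Hadhb (-0.31 ± 0.10) and Hadha (-0.14 ± 0.05), which fell. Within the acyl-CoA dehydrogenases the very long-chain enzyme rose, as did Acad9 with that limit, the medium-chain, short-chain and isovaleryl enzymes fell, and Acadl and Acad11 did not pass the test (-0.08 ± 0.07 for Acadl and 0.15 ± 0.11 for Acad11).

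**Figure D3:**
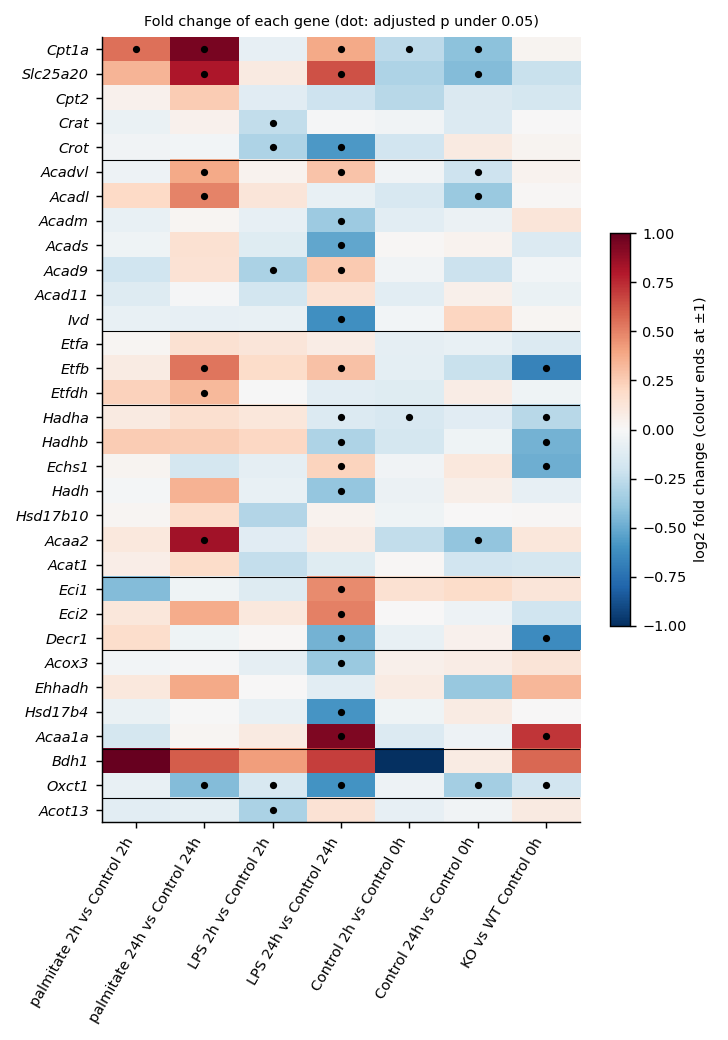
Log2 fold change (colour, ending at ±1) of the 32 genes, in rows grouped by role, in 7 comparisons, with a dot where the adjusted p was under 0.05. Palmitate 24 h has 7 red and 1 blue dots, LPS 24 h has 9 red and 11 blue dots, and the strong colours of Bdh1 rest on 0 to 12 counts in a library.

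At 2 h of LPS 34.2% of all genes tested were called, 15.2% lower and 19% higher. Of the 32 genes LPS lowered 5 and raised 0, 15.6% of the list. DESeq2 gave the same counts, and at an unadjusted p under 0.05 edgeR had 9 of the 32 genes. Crot had the smallest adjusted p. It held 28.5, 34.7 and 36.7 CPM in WT Control 2 h and 27.9, 30.01 and 26.2 CPM with LPS, and 39.3, 38.3 and 40.4 CPM and 32.6, 26.9 and 33.1 CPM with KO labels, with overlap in WT only (log2 fold change -0.31 ± 0.09 SE, adjusted p = 0.00607). Crat, which makes acetylcarnitine, went from 60.8, 64.7 and 65.05 CPM to 45.1, 55.9 and 49.4 CPM in WT and from 62.4, 59.3 and 59.7 CPM to 58.1, 52.5 and 52.8 CPM with KO labels, without overlap (log2 fold change -0.25 ± 0.07 SE, adjusted p = 0.00611). Both genes encode carnitine acyltransferases, and Cpt1a and Cpt2, which act on long chains, were not called.

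Oxct1 already stood lower at 2 h, at 182, 212 and 177 CPM in WT LPS and 199, 170.0 and 176 CPM with KO labels, against 201, 220.2 and 202 CPM and 210.3, 199 and 211 CPM in Control, with overlapping ranges in WT (log2 fold change -0.16 ± 0.05 SE, adjusted p = 0.00653). Acad9, which is needed to assemble respiratory complex I, went from 20.3, 19.5 and 19.4 CPM to 13.6, 15.003 and 15.4 CPM in WT and from 18.6, 17.7 and 16.97 CPM to 10.2, 18.4 and 15.6 CPM with KO labels, where 1 LPS library lay within the Control range (log2 fold change -0.32 ± 0.11 SE, adjusted p = 0.0209). Acot13, a thioesterase that frees fatty acids from CoA, was called at the edge (log2 fold change -0.32 ± 0.13 SE, adjusted p = 0.0477), with overlap under both labels, and its call held in 6 of 12 fits that left out 1 library. Counts of called genes were 3 in WT libraries alone (1 higher and 2 lower) and 2 in KO libraries alone (both lower), and 0 in WT libraries without those over 20 CPM of fibroblast and adipocyte markers (edgeR, with 6 at an unadjusted p under 0.05).

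The effect of LPS differed between 24 h and 2 h for 17 of the 32 genes, 8 upward and 9 downward, where 46.3% of all genes differed. The count was 8 in WT libraries alone and 9 in KO libraries alone, beside 3786 and 3880 of all genes tested. Acad9 stood below Control at 2 h and above it at 24 h, with a difference of effects of 0.58 ± 0.15. Hadha and Hadhb had positive values at 2 h that did not pass the test (0.12 and 0.21) and were lower at 24 h, with differences of -0.25 ± 0.07 and -0.51 ± 0.15. Acot13, called lower at 2 h, had a value of 0.15 at 24 h (0.47 ± 0.17 for the difference). In unscaled values the 32 genes summed to 1381 ± 51.1 CPM before TMM scaling in WT LPS 2 h against 1594 ± 28.8 in WT Control 2 h (SD, n = 3). On the TMM scale the median log2 fold change of the 32 genes at 2 h was -0.08, beside -0.02 over all genes.

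**Figure D4:**
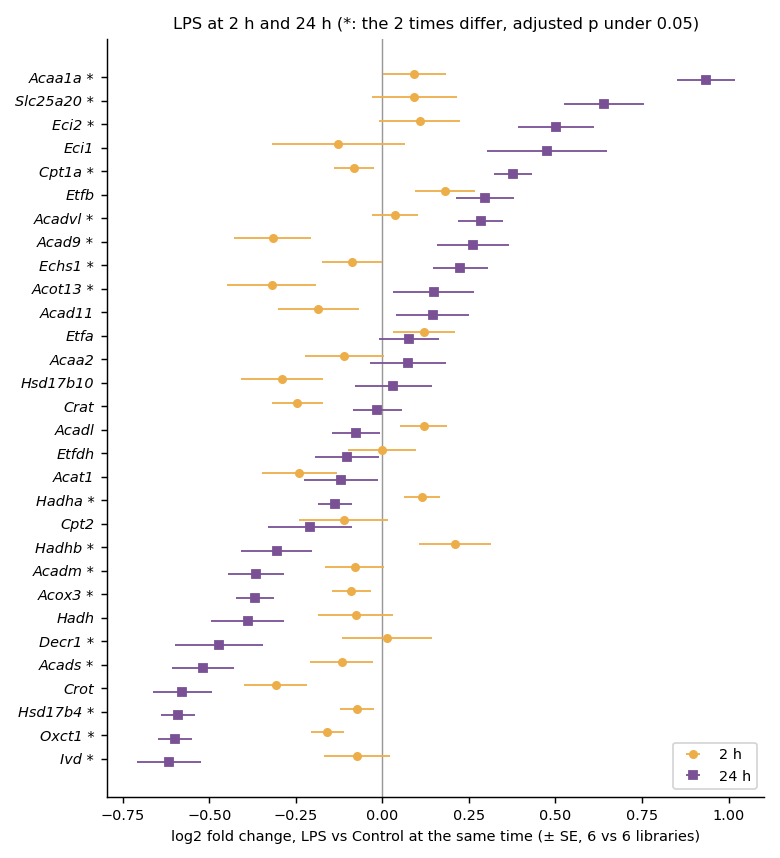
Log2 fold change of LPS against Control (x axis) at 2 h (circles) and 24 h (squares) for 30 of the 32 genes, ordered by the 24 h value, with SE; Bdh1 and Ehhadh are left out for their low counts. An asterisk marks genes whose effect differed between the times. The squares spread from -0.62 (Ivd) to 0.93 (Acaa1a), and the circles from -0.32 to 0.21.

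Hadha and Hadhb, which encode both subunits of the trifunctional protein, lie head to head on chromosome 5, and their annotated starts are separated by 85 bases. This interval is printed because the pair fell together with LPS at 24 h and in KO Control 0 h, from the plus strand of GRCm38.
Hadha to Hadhb, chr5:30155163-30155247, plus strand: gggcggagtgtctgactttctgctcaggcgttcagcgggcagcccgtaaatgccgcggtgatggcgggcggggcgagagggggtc
The stretch is 69.4% G or C with 9 CG pairs. It held none of the 4 motifs above, and Hadha had 133 CPM and Hadhb 22.01 CPM as medians over the 42 libraries.

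Marker lists moved with LPS at both times. At 2 h the cell cycle list stood at 947 to 1270 CPM in LPS and 517 to 740 CPM in Control, and the dendritic cell list at 49 to 52 CPM against 31.9 to 39.1 CPM in WT and at 80.1 to 88.7 CPM against 59 to 71.5 CPM with KO labels. At 24 h the 10 cell cycle genes summed to 264 to 336 CPM in LPS 24 h and 652 to 747 CPM in Control 24 h, and the 12 granulocyte genes (7 tested) to 401 to 615 CPM against 150 to 321 CPM. The dendritic cell list (5 of 7 tested) stood at 37.4 to 88.4 CPM in Control 24 h and 12.1 to 19.2 CPM in LPS 24 h. Their part in the fold changes of the 32 genes was not tested.

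The pathway lists are read against 52.1% of all genes called at LPS 24 h, 25.6% higher and 26.5% lower. Among 17 regulators tested, 3 rose and 4 fell (41.2% called), led by Lipe, a lipase of stored fat (1.15 ± 0.12), and Esrra, an orphan nuclear receptor (0.93 ± 0.11), and by Pparg, the fatty acid receptor of fat cells and macrophages (-2.55 ± 0.18), and Rxra, its partner (-0.50 ± 0.05). Of 8 fatty acid sensor targets 5 fell and 1 rose (75% called), among them the fatty acid receptor Cd36 (-1.02 ± 0.06) and the fatty acid binding protein Fabp4 (-1.19 ± 0.10). The gene that rose was Plin2 (0.66 ± 0.04). Of the genes that rose with palmitate at 24 h, Cpt1a, Slc25a20, Acadvl and Etfb were higher with LPS at 24 h. Acadl, Acaa2 and Etfdh were not called there. How these genes relate to the sensor targets was not tested.

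Of 18 other peroxisomal genes tested 4 rose and 4 fell (44.4% called, below the share of all genes), among them Phyh, which starts the breakdown of phytanic acid (0.83 ± 0.09), on the higher side and catalase (Cat) on the lower side. Of 15 other mitochondrial genes tested, 33.3% of them called, 3 rose, led by Nudt19 (0.88 ± 0.15) and Acbd4 (0.67 ± 0.17), and 2 fell, Acbd5 (-0.62 ± 0.06) and Dbi, an acyl-CoA binding protein (-0.41 ± 0.09). Of 6 other ketone genes, 83.3% of them called, 4 fell, among them Aacs, which uses acetoacetate for synthesis (-0.48 ± 0.09), and the transporter Slc16a6 rose (0.26 ± 0.11).

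Of 17 propionate and branched-chain genes, 17.6% of them called, 1 rose, Bcat2 (0.77 ± 0.09), and 2 fell, Pccb, a subunit of propionyl-CoA carboxylase (-1.02 ± 0.10), and Mcee (-0.37 ± 0.12). Of 6 flavin supply genes, 66.7% of them called, 2 rose, Flad1, the FAD synthase (0.47 ± 0.13), and Slc52a2, a riboflavin transporter (0.51 ± 0.21), and 2 fell, Rfk, the riboflavin kinase (-0.43 ± 0.08), and Etfrf1 (-0.43 ± 0.15). At 2 h of LPS the 7 lists had 1 to 6 genes called each, 16.7 to 37.5% of those tested where 34.2% of all genes were called, and the regulators had 2 higher, of which the first was Sirt1 (0.60 ± 0.10), and 4 lower, of which the first was Rxra (-0.39 ± 0.05).

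Control cells changed with time in culture without any treatment. Between 0 and 24 h, 16.5% of all genes tested were called, 8.62% lower and 7.9% higher. Of the 32 genes 6 fell and 0 rose by edgeR, 18.8% of the list. DESeq2 gave the same counts, and at an unadjusted p under 0.05 edgeR had 11 of the 32 genes. Cpt1a went from 155, 184 and 161 CPM in WT Control 0 h to the Control 24 h values above, and from 172, 168 and 171 CPM with KO labels (log2 fold change -0.41 ± 0.06 SE, adjusted p = 1.4e-07). Oxct1 started at 237, 225 and 225 CPM in WT and 202, 209 and 191 CPM with KO labels (log2 fold change -0.34 ± 0.05 SE, adjusted p = 1.54e-07), and neither gene's Control 0 h and 24 h ranges overlapped. Acadl started at 94.6, 99.1 and 108 CPM in WT and 104, 104 and 97.5 CPM with KO labels, also above all values of Control 24 h (log2 fold change -0.37 ± 0.07 SE, adjusted p = 3.72e-05).

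Slc25a20 held 18.6, 22.4 and 21.3 CPM in WT Control 0 h and 14.3, 21.1 and 17.99 CPM with KO labels, where 1 library overlapped with Control 24 h (log2 fold change -0.43 ± 0.12 SE, adjusted p = 0.00614). Acaa2 (-0.39 ± 0.11) and Acadvl (-0.21 ± 0.07) completed the genes that fell. The 6 genes that fell in Control by 24 h are 6 of the 8 genes called with palmitate at 24 h, and both comparisons use the Control 24 h libraries. Palmitate 24 h was not tested against Control 0 h. Its means were higher than those of Control 0 h for Cpt1a (254 and 237 CPM against 167 and 170.3 CPM, WT and KO labels), Acaa2 (34.2 and 32.9 against 23.6 and 25.6 CPM) and Slc25a20 (24.7 and 25.3 against 20.8 and 17.8 CPM) and Acadl (112 and 109 against 101 and 102 CPM), and the mean of Oxct1 was lower (128 and 122 against 229 and 201 CPM). In WT the libraries overlapped for Slc25a20 (21.6 to 30.8 against 18.6 to 22.4 CPM) and Acadl (105 to 117 against 94.6 to 108 CPM). The other genes called with palmitate at 24 h are not compared with Control 0 h here.

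By 2 h in culture 2 genes had fallen and 0 had risen, 6.25% of the list. Of all genes tested 16.7% were called, 7.36% lower and 9.35% higher. Cpt1a went from the 0 h values above to 142, 148 and 142 CPM in WT and 142, 142 and 129.8 CPM with KO labels (log2 fold change -0.26 ± 0.05 SE, adjusted p = 0.00033). Hadha went from 161, 149.7 and 162 CPM to 119, 133 and 129 CPM in WT, without overlap, and from 122, 135 and 133 CPM to 120.2, 132 and 137 CPM with KO labels, with overlap (log2 fold change -0.16 ± 0.05 SE, adjusted p = 0.0201). The Hadha call was lost in 5 of 12 fits that left out 1 library. Of the fatty acid sensor targets, 3 fell and 1 rose by 2 h and 6 fell and 1 rose by 24 h, of 8 tested. At 24 h the first to fall were Plin2 (-1.02 ± 0.04) and Angptl4 (-2.06 ± 0.17), and Abca1, a cholesterol exporter, rose (0.57 ± 0.04). Among the regulators Pparg fell by 24 h (-0.85 ± 0.13) and Ppard, the more widely expressed relative, rose (0.31 ± 0.07).

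Among the 7 conditions compared, the genotype labels differed in these genes at Control 0 h alone by the edgeR test, where 12.5% of all genes tested were called. There 6 of the 32 genes were lower and 1 higher with KO labels, 21.9% of the list. Of all genes tested 6.06% were lower and 6.4% higher. The count of 7 among the 32 genes fell to 4 without WT library 3, KO library 1 or KO library 3. Etfb held 44.5, 46.6 and 50.7 CPM in WT and 29.1, 33.4 and 26.99 CPM with KO labels, without overlap (log2 fold change -0.67 ± 0.12 SE, adjusted p = 8.14e-05). Echs1 held 36.9, 32.7 and 30.8 CPM and 25.9, 22.1 and 23.6 CPM (log2 fold change -0.49 ± 0.12 SE, adjusted p = 0.00319). The Hadha values given above for 0 h also did not overlap (log2 fold change -0.28 ± 0.07 SE, adjusted p = 0.00543), though the call was lost without KO library 1.

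Decr1 held 18.3, 17.998 and 23.9 CPM in WT and 12.2, 14.4 and 12.6 CPM with KO labels (log2 fold change -0.63 ± 0.17 SE, adjusted p = 0.0119), a call that held in 3 of 6 fits that left out 1 library. Hadhb (-0.47 ± 0.14) and Oxct1 (-0.19 ± 0.06) were lower too. The call for Hadhb was lost without WT library 3 or KO library 3, and that for Oxct1 was lost in each of the 6 fits that left out 1 of the libraries compared. Acaa1a was higher with KO labels, at 75.97, 62.5 and 105 CPM against 52.8, 49.9 and 46.04 CPM, with a wide spread in the KO libraries (log2 fold change 0.72 ± 0.12 SE, adjusted p = 4.39e-05). Myd88, its neighbour on the other strand, differed there by 0.30 (adjusted p = 0.0168, edgeR quasi-likelihood test). The summed share of the 32 genes was 1682 ± 20.04 CPM in WT and 1705 ± 31.7 CPM with KO labels before TMM scaling (SD, n = 3), a difference within their spread.

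The fibroblast and adipocyte markers separate the same libraries, at 0.631 to 1.45 CPM in WT Control 0 h and 42.5 to 69.8 CPM in KO Control 0 h. Col1a1, a fibroblast collagen, stood at 0 to 0.631 CPM in WT and 21.4 to 40.1 CPM with KO labels, and 2 of the 9 genes, Lum and Adipoq, were at 0 in all 6 libraries. The macrophage list (15800 to 16000 CPM in WT and 10600 to 14500 CPM with KO labels) and the granulocyte list (104 to 120 CPM and 139 to 153 CPM) did not overlap between the labels either. The label and these marker lists cannot be told apart within Control 0 h. This separation was not particular to 0 h. The macrophage list did not overlap between the labels in any other condition either. In WT and KO labels it was 14800 to 15400 and 10500 to 11300 CPM in Control 2 h. In Control 24 h it was 16300 to 17000 and 11000 to 11600 CPM. The fibroblast and granulocyte lists were also apart in Control 2 h. In WT and KO labels the granulocyte list was 96.3 to 107 and 151 to 219 CPM in palmitate 2 h. It was 96.6 to 128 and 189 to 304 CPM in LPS 2 h. In Control 24 h it was 150 to 156 and 236 to 321 CPM, and in palmitate 24 h 151 to 174 and 207 to 255 CPM. In LPS 24 h it overlapped (425 to 615 and 401 to 489 CPM). With the fibroblast and adipocyte markers as a covariate over all libraries, 6 of the 32 genes were called. In that fit 690 of all 11624 genes tested were called, against 1448 without the covariate. Among the pathway lists, the labels differed at 0 h for 3 fatty acid sensor targets (Cd36, -0.46 ± 0.08, Abca1, -0.33 ± 0.06, and Ucp2, all lower), 2 regulators (Acaca, 0.53 ± 0.13, and Ncor1, 0.21 ± 0.06, both higher), 1 propionate gene (Pccb, -0.41 ± 0.13) and 1 flavin supply gene (Rfk, -0.31 ± 0.11).

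**Figure D5:**
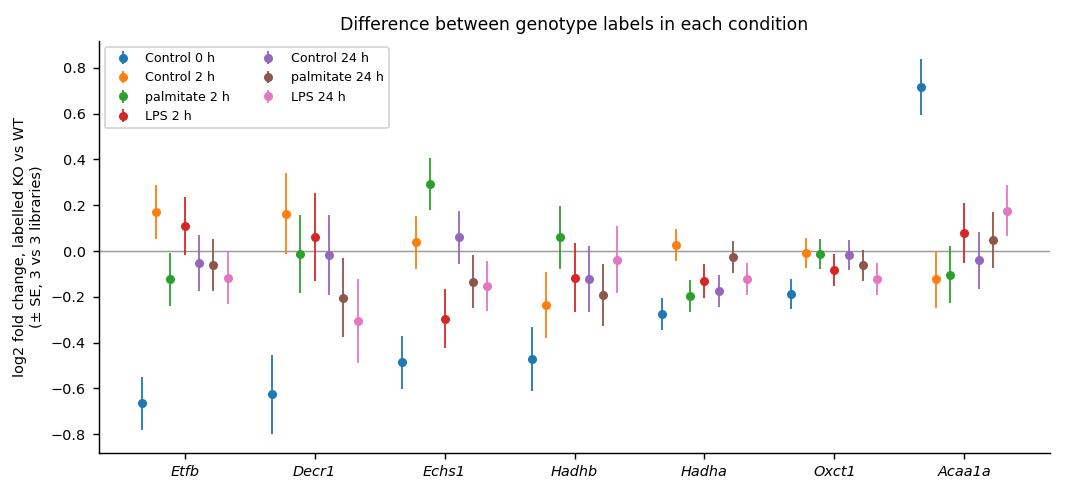
Log2 fold change of libraries labelled KO against WT (y axis, with SE, 3 libraries against 3) for the 7 genes called at Control 0 h (x axis), in each of 7 conditions. The Control 0 h points lie farthest from 0 for the 6 genes going down (from -0.67 for Etfb to -0.19 for Oxct1) and for Acaa1a going up (0.72).

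In the other 6 conditions edgeR called 0 of the 32 genes, and DESeq2 also called 0 in each. The background share of genes called was 0.49% in Control 2 h, 0.146% in palmitate 2 h, 0.465% in LPS 2 h, 0.12% in Control 24 h, 0.0688% in palmitate 24 h and 0.146% in LPS 24 h. At an unadjusted p under 0.05 the number of the 32 genes was 3, 4, 2, 1, 0 and 5 in the same order. For Etfb, the gene with the largest fall at 0 h, the difference between labels was 0.17 ± 0.12 in Control 2 h and -0.05 ± 0.12 in Control 24 h. Whether the label differences at 0 h differ from those at later times was not tested for these genes.

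A test of whether the treatment effects differ between the labels called 0 of the 32 genes with either tool. Over all genes edgeR called 0% for LPS 2 h, 0.0086% for LPS 24 h, 0% for palmitate 2 h and 0% for palmitate 24 h. At an unadjusted p under 0.05 there were 1, 3, 3 and 1 of the 32 genes, and their adjusted p-values were 0.701 or higher in the same edgeR test. With palmitate at 24 h the WT libraries alone gave 6 higher and 1 lower genes, and the KO libraries alone 5 higher and 1 lower. Of all genes tested, 0.671% were higher and 0.181% lower in WT libraries alone. The shares in KO libraries alone were 0.637% and 0.241%. For Cpt1a the palmitate 24 h effect was 0.98 ± 0.08 in WT and 0.92 ± 0.08 with KO labels.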

How the data were processed

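The deposited table holds raw read counts per gene for 42 libraries. Per the labels, the authors' processing notes name fastp 0.19.11, STAR 2.7.3a and the mouse builds mm10 and mm9, and the study's methods give STAR counts on mm10. The annotation release and the strand setting are not given in the sources used here. The 32 genes, the pathway and marker lists and the motifs were chosen with earlier results of these data known.

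Counts were fitted with edgeR 4.0.16 (quasi-likelihood, R 4.3.3, limma 3.58.1) over all 42 libraries with 1 mean per group, TMM scaling and the edgeR expression filter, which kept 11624 genes. A gene was called at a Benjamini-Hochberg adjusted p under 0.05 over all genes tested. Treatment and time comparisons are means over both genotype labels (6 libraries against 6), and genotype comparisons are 3 against 3. Adjusted p-values without a named tool, and log2 fold changes, given as value ± SE, are from this fit. DESeq2 1.42.0 was an alternative. Each comparison names called genes up to 8 per direction by adjusted p, with library values for the first 4, and up to 2 per direction in each pathway list, of which 3 genes are not reported here. Libraries 1 to 3 follow column order and only name a library. No 2 replicates agreed within sampling noise (chi-square per degree of freedom 1.93 to 9.32 over 42 pairs), and 0 columns of other series were present. The steps were tested on simulated data. Sequences are from RefSeq tables (GRCm38.p6), where 7 genes (Acaa2, Acad9, Acat1, Acot13, Crat, Decr1 and Hsd17b4) had no promoter entry.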

Additional observations from a re-analysis of the deposited data

Results flagged for a closer look

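The effect of LPS, tested as the 24 h effect minus the 2 h effect (edgeR quasi-likelihood test, adjusted p under 0.05), differed between the times for 17 of the 32 genes. On the log2 scale the difference was positive for Acaa1a (0.84), Acad9 (0.58), Slc25a20 (0.55), Acot13 (0.47), Cpt1a (0.46), Eci2 (0.40), Echs1 (0.31) and Acadvl (0.25). It was negative for Ivd (-0.54), Hsd17b4 (-0.52), Hadhb (-0.51), Decr1 (-0.49), Oxct1 (-0.44), Acads (-0.40), Acadm (-0.29), Acox3 (-0.28) and Hadha (-0.25). The smallest adjusted p belonged to Hsd17b4 (2.4e-08) and the largest to Acadm (0.0418).

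The effect of palmitate differed between the same times for 5 genes, upward for Acaa2 (0.73), Etfb (0.46), Acadvl (0.44) and Cpt1a (0.40) and downward for Oxct1 (-0.36). Cpt1a, Acadvl and Oxct1 thus appear for both treatments, in comparisons that share their Control libraries.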

How the results depend on the processing

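No direction of a gene reported as called was reversed under any alternative. Each gene's call was recomputed under every alternative, and 1411 of these values stayed on the same side of the threshold while 217 lost the call. In WT libraries alone the number of the 32 genes called was 3 for LPS 2 h, 8 for the LPS time difference and 1 for the palmitate time difference, and in KO libraries alone it was 2, 9 and 0. Over all genes tested the counts were 2686, 3786 and 28 in WT and 2776, 3880 and 20 in KO libraries. With all genes that had at least 1 count the number of the 32 genes called was 3 for LPS 2 h and 1 for Control 2 h, beside 3702 and 1773 of all genes. A threshold that paired a raw p under 0.05 with a log2 change of more than 1 either way gave 0 for the genotype labels at Control 0 h. In the 18 WT libraries without those over 20 CPM of fibroblast and adipocyte markers, chosen after seeing the data, it was 0 for LPS 2 h, 11 for LPS 24 h, 4 for palmitate 24 h, 7 for the LPS time difference and 0 for the palmitate time difference. Over all genes tested the counts in these 18 libraries were 2182, 3878, 43, 3053 and 6 in the same order. These subsets hold fewer libraries. RLE size factors, DESeq2, fits of the compared groups only and the marker covariate kept every other count within 1.5 times.

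Leaving out 1 library at a time gave 4 to 6 genes for LPS 2 h, 18 to 20 for LPS 24 h, 1 for palmitate 2 h, 7 to 8 for palmitate 24 h, 1 to 3 for Control 2 h, 5 to 6 for Control 24 h and 4 to 6 for the genotype labels at Control 0 h. It gave 15 to 19 for the LPS time difference, 4 to 5 for the palmitate time difference and 0 for all other genotype comparisons and interactions. Over all genes tested these fits called 3703 to 3827 genes for LPS 2 h and 5706 to 5915 for LPS 24 h. For palmitate the ranges were 28 to 68 at 2 h and 228 to 279 at 24 h. For Control they were 1641 to 1914 at 2 h and 1633 to 1793 at 24 h. For the genotype labels at Control 0 h the range was 731 to 1374. For the time differences it was 5167 to 5397 with LPS and 104 to 168 with palmitate. The Control 2 h count fell to 1 without WT Control 0 h library 3, KO Control 0 h library 3, WT Control 2 h library 1 or KO Control 2 h library 1. The Control 0 h genotype count fell to 4 without WT library 3, KO library 1 or KO library 3. At LPS 24 h, Echs1 lost its call without WT Control 24 h library 2 or KO LPS 24 h library 2, Eci1 without KO Control 24 h library 1 or KO LPS 24 h library 2, and Hadha without KO Control 24 h library 3, with Acad9 losing it in 5 of 12 fits (log2 fold change 0.22 to 0.31 over them). Acad9 at LPS 2 h lost its call without KO LPS 2 h library 1, and Acadvl at Control 24 h lost it in 3 of 12 fits. For the genotype labels at Control 0 h, Hadha lost it without KO library 1 and Hadhb without WT library 3 or KO library 3. Among the time differences of LPS, Acadm kept its call in 6 of 24 fits.

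No paired analysis was possible because the columns carry no replicate numbers. The depth of these libraries does not allow fold changes of Bdh1, and limits those of Ehhadh and Eci1. Reads of Acaa1a and Myd88, of Acadvl and Dvl2 and of other overlapping pairs cannot be told apart without the strand setting.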
